A study of Mus musculus with 16 samples.

Results

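The genes described here are 7 markers that are widely used to recognise blood monocytes: Ly6c2, Ccr2, Plac8, Chil3, Cd44, Hp and Vcan. They were chosen by name, as 7 of the 53850 genes measured, to show how far transcripts of blood monocytes appear in microglia sorted from the brain. Young C57BL/6J mice gave the microglia, which were isolated from the cortex by fluorescence-activated cell sorting. The 4 groups of 4 libraries were males on chow with PLX3397 for 1 week, males on control chow, females on chow with PLX3397 for 1 week, and females on control chow. All groups shared strain, tissue and sort, and no transgene or other allele is named. PLX3397 inhibits the receptor for colony-stimulating factor 1 (CSF1R), on which microglia depend for survival, and the series asks why the drug removes microglia to a different degree in males and females. The gate of the sort, the ages in days and whether each sample was 1 animal are not given in the sources used here, so p-values measure the spread between these samples, which may be technical.

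Classical monocytes leave the bone marrow with the help of the chemokine receptor CCR2, circulate with high surface LY6C, and can enter tissues and become macrophages. In the healthy adult brain few are present behind the blood-brain barrier, and microglia, which arise in the embryo, make little Ly6c2 or Ccr2. None of the 7 genes belongs to monocytes alone. Neutrophils carry Hp and Chil3 transcripts too, activated macrophages and lymphocytes make Cd44, Plac8 is shared by several white blood cells, and Vcan is also made by oligodendrocyte precursors.

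Ly6c2 encodes a small membrane-anchored protein of the LY6 family and lies on chromosome 15 next to Ly6c1, its near copy in endothelial cells and lymphocytes. The first 120 coding bases of both genes, from the GENCODE vM21 transcripts of GRCm38, are shown because they say how well reads can tell the pair apart, with differing bases in capitals.
Ly6c2: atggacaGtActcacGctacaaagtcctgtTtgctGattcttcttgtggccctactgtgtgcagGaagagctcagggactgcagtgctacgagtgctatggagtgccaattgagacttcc
Ly6c1: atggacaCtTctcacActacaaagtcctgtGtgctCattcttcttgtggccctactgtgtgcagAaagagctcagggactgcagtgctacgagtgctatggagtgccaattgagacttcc
The coding sequences, 396 bases each, differed at 9 positions (97.7% identical), 6 of them in this stretch. Of the 773 windows of 50 bases in the Ly6c2 transcript, 252 (32.6%) also occur in a Ly6c1 transcript, so the authors' counting could divide some reads between the genes. Ly6c1 was listed at 0 in 15 libraries and at 2.15 in male PLX3397 replicate 4.

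Promoters are shown for the 2 markers that define classical monocytes, LY6C and CCR2. Both are the 250 bases before an annotated start in RefSeq (GRCm38.p6), and capitals mark GAGGAAGT, a form of the site of the myeloid factor PU.1.
Ly6c2 promoter, chr15:75111972-75112221, minus strand: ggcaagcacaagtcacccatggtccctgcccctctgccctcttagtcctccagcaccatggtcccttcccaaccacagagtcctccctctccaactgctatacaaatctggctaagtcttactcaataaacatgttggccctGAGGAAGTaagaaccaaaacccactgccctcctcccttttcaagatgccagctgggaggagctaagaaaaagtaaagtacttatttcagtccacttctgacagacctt
Ccr2 promoter, chr9:124101933-124102182, plus strand: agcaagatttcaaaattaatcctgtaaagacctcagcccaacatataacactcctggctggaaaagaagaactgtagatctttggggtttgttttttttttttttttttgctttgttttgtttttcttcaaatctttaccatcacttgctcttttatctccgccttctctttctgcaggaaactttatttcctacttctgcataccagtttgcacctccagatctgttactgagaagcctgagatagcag
Searched on both strands, GAGGAAGT had 1 match in this Ly6c2 window, 2 in the window of the gene's second annotated start, 0 in that of Ccr2, and a match in 2.44% of the 32817 windows of this length in the table. Neither window held TTGCNNAA, a C/EBP site found in 9.57% of windows, or TGANTCA, an AP-1 site found in 6.75%. The windows of the 2 Ly6c2 starts overlap, and the match in the window shown is 1 of the 2 in the other. The table had 6 of the 7 members, with no entry for Hp.

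Values are the authors' normalised read counts, 1 read being worth about 0.512 to 1.88 depending on the library, and the totals per library were 32600000 to 44200000. Estimated reads per library were 29600000 to 39400000 in males on PLX3397, 42000000 to 79300000 in male controls, 22200000 to 72100000 in females on PLX3397 and 29400000 to 38800000 in female controls. The libraries held microglial RNA: all 11 microglial identity genes were detected in every library, and Cx3cr1 read at least 137680. Xist was at 17.9 to 24.7 in males on PLX3397 and at 14.7 to 515.7 in male controls, where replicate 4 stood apart at 515.7. Male PLX3397 replicate 3 stood apart in its neutrophil transcripts (below). Because these are bulk samples, fewer cells of a type and less RNA per cell cannot be told apart.

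A filter on low values (at least 10 in at least 4 libraries) kept 6 of the 7 markers and 19594 genes in all. Vcan did not pass, and Ly6c2, at 10 or more in 6 libraries, passed only through males on PLX3397. Each change is a difference between group means of log2(value + 1), given with its SE. It is not the ratio of the group means, and libraries listed at 0 can make it larger than that ratio. For low genes its size rests in part on the 1 that was added. Adjusted p-values are from limma with Benjamini-Hochberg adjustment over all genes tested. A gene was called when its adjusted p was under 0.05. In counts of alternatives, exact permutation was set against 0.05 by its unadjusted p.

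**Figure D1:**
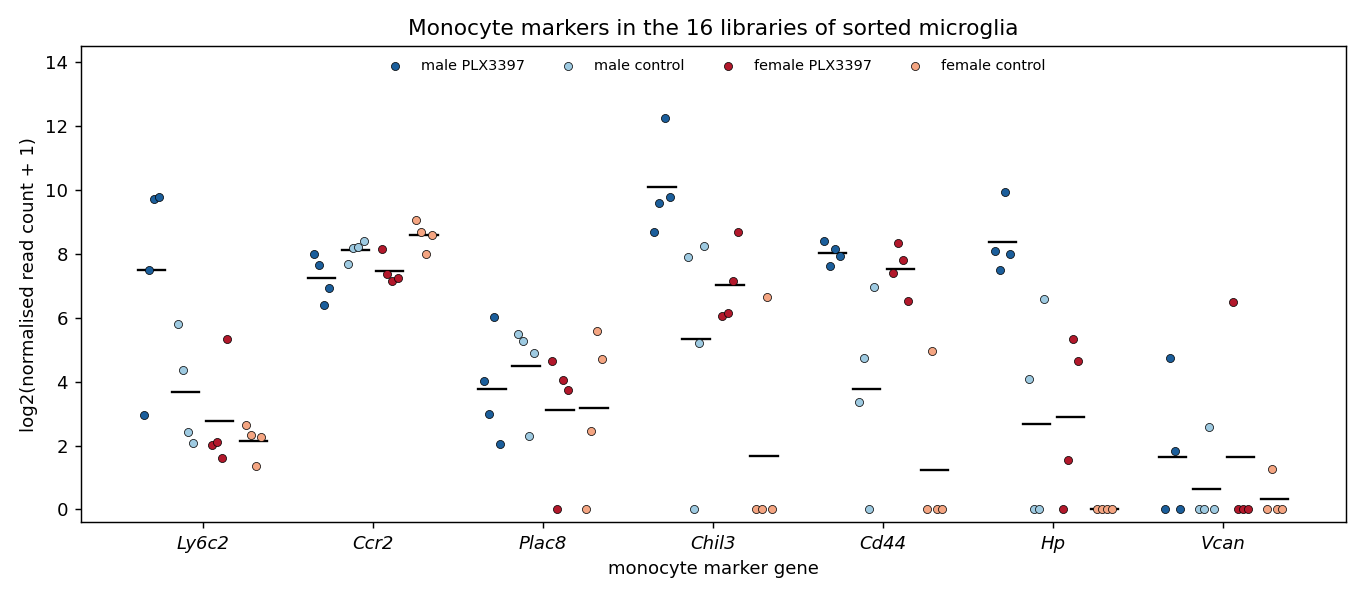
Each point is 1 library, and the vertical axis is log2(normalised read count + 1) for the 7 monocyte markers, with groups side by side and bars at the group means. Ccr2 lies in a narrow band in all 16 libraries, Ly6c2 is high in 3 of the 4 libraries of males on PLX3397, and Hp is at 0 in all 4 female controls.

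Males on PLX3397 had more Hp and Cd44 than male controls, and the 2 genes that define classical monocytes did not pass the test. Hp and Cd44 were thus 2 of the 6 markers tested that rose, none fell, and 4 did not pass. Over all genes tested, 4.16% rose and 7.52% fell in this comparison. The median change of the 6 markers was 4.03, against 0.02 over all genes tested. For 3 of the 7 markers (Chil3, Cd44 and Hp) the groups did not overlap, all higher on PLX3397; over all genes tested, 7.71% did not overlap and were higher and 9.84% were lower.

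Ly6c2 read 6.75, 181, 833 and 866 in the 4 libraries of males on PLX3397, against 54.2, 19.6, 4.4 and 3.22 in male controls. It was thus high in 3 of the 4 treated males, while the fourth lay among the controls and the groups overlapped. The change of 3.82 ± 1.28 did not pass (adjusted p = 0.0664; 95% confidence interval 1.10 to 6.53). It passed without male PLX3397 replicate 1, the low library (5.32, adjusted p = 0.00241), without male control replicate 1 (adjusted p = 0.048), with a pseudocount of 5 (0.0449) and with array weights (0.0306). Over its alternatives the adjusted p was between 0.00241 and 0.351.

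Ccr2, the receptor for the chemokine CCL2 that draws monocytes into tissue, had a change of the opposite sign. It read 256, 198, 83.9 and 122 in males on PLX3397 and 204, 291, 297 and 339 in male controls. The lowest 3 values were all on PLX3397, but replicate 1 on the drug lay above replicate 1 of the controls. The change of -0.88 ± 0.335 did not pass (adjusted p = 0.111, 95% confidence interval -1.59 to -0.17). It passed without male PLX3397 replicate 1 (adjusted p = 0.0399) and with array weights (-0.96, adjusted p = 0.0491).

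Ccr1, another chemokine receptor that monocytes carry, fell in males by 2.46 ± 0.40 (adjusted p = 0.000579). Per kilobase of exon, mean Ccr2 was at 24.4 in males on PLX3397 and 41.9 in male controls, and at 27.3 in females on PLX3397 and 58.0 in female controls. Cx3cr1 on that scale was at 36710, 73540, 54570 and 75480 in the same 4 groups, so Ccr2 amounted to 0.0664% of it in males on PLX3397, 0.0569% in male controls, 0.04995% in females on PLX3397 and 0.0769% in female controls.

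Hp encodes haptoglobin, the plasma protein that binds free haemoglobin, which myeloid cells also store in granules. It read 269.5, 177, 966 and 251 in males on PLX3397, against 15.8, 0, 0 and 95.1 in male controls. Every treated library lay above every control. The rise was 5.70 ± 1.35 (adjusted p = 0.0101, 95% confidence interval 2.84 to 8.56). It stayed under 0.05 in all 29 alternatives, where the change was 4.47 to 7.13. Exact permutation was 1 of them, by its unadjusted p of 0.0286.

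Chil3 encodes a chitinase-like lectin secreted by myeloid cells. It read 407, 767, 4879 and 876 in males on PLX3397 and 239.9, 0, 35.8 and 303 in male controls. The groups did not overlap, and replicate 3 on PLX3397 was far above the other 3 libraries. The change of 4.73 ± 1.67 did not pass (adjusted p = 0.0811; 95% confidence interval 1.20 to 8.26), although by exact two-sided permutation p was 0.0286, the smallest that 4 against 4 can give. It passed with a pseudocount of 5 (adjusted p = 0.0371), with voom weights (0.0197), with array weights (0.031) and without female control replicate 3 (0.0344). Its near relative Chil4 was above 0 in 1 library, male PLX3397 replicate 3, at 14.1.

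Cd44 encodes the main cell surface receptor for hyaluronan, made by many activated white blood cells. It read 337, 194, 282 and 243 in males on PLX3397 and 9.39, 25.8, 0 and 123 in male controls. All 4 treated libraries were higher than the highest control, and they were close to each other, with replicate 3 in the middle. The rise was 4.25 ± 1.22 (adjusted p = 0.0316; 95% confidence interval 1.67 to 6.83). The call ended without PLX3397 replicate 1 (adjusted p = 0.0686), 2 (0.0591), 3 (0.0697) or 4 (0.0536), without control replicate 1 (0.075) or 3 (0.0936), and with no filter on low values (0.0586). The change in those fits was 2.99 to 4.39.

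Plac8 and Vcan gave little signal. Plac8, a small cysteine-rich protein gene of white blood cells, read 15.0, 6.98, 64.2 and 3.09 in males on PLX3397 and 43.5, 37.5, 3.95 and 28.8 in male controls. The groups overlapped over most of their range (-0.72 ± 1.26, adjusted p = 0.79; 95% confidence interval -3.40 to 1.96). Vcan, which encodes the matrix proteoglycan versican, was listed at 0, 25.8, 2.57 and 0 on PLX3397 and at 0, 0, 5.02 and 0 on control chow.

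Females on PLX3397 had more Cd44 than female controls, and none of the other 5 markers tested passed. Over all genes tested, 2.67% rose and 2.67% fell in this comparison. The median fitted change of the 6 markers, Hp with its controls at 0 included, was 1.75, against -0.003 over all genes. Cd44 was also the 1 marker of 7 whose groups did not overlap, higher on PLX3397; over all genes tested, 5.13% did not overlap and were higher and 5.26% were lower.

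Cd44 read 168, 323, 225 and 90.1 in females on PLX3397, against 0, 29.9, 0 and 0 in female controls. Every treated library exceeded every control. The rise was 6.28 ± 1.22 (adjusted p = 0.00471), a size that leans on 3 controls listed at 0. It held in 28 of 29 alternatives and ended with voom weights (6.60, adjusted p = 0.167).

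Chil3 read 65.5, 70.2, 139.6 and 411 in females on PLX3397 and 0, 0, 98.5 and 0 in female controls. Replicate 3 of the controls lay inside the range of the treated libraries. The change of 5.35 ± 1.67 did not pass (adjusted p = 0.0778; 95% confidence interval 1.82 to 8.88) and passed without female control replicate 3 (7.01, adjusted p = 0.0115) and without male control replicate 2 (adjusted p = 0.0246).

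Hp was listed at 0, 1.9, 39.5 and 24.0 in females on PLX3397 and at 0 in all 4 female controls, and it did not pass (adjusted p = 0.289). Replicates 3 and 4 on the drug were thus well above 0, and no fold is given against a group at 0.

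Ly6c2 read 3.06, 3.36, 2.08 and 39.3 in females on PLX3397 and 5.21, 4.04, 1.56 and 3.85 in female controls. Apart from replicate 4 on PLX3397, all of these values equal a few reads. The change was 0.62 ± 1.28 (adjusted p = 0.875), and its 95% confidence interval of -2.09 to 3.34 leaves room for a several-fold change either way.

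Ccr2 read 282, 164, 141 and 150.3 in females on PLX3397 and 527, 409.6, 253 and 379.8 in female controls. Replicate 1 on the drug was above replicate 3 of the controls, and the other 3 treated libraries were below every control. The change of -1.10 ± 0.335 did not pass (adjusted p = 0.0719; 95% confidence interval -1.81 to -0.39). It passed without female PLX3397 replicate 1 (adjusted p = 0.0404), female control replicate 3 (0.0479) or male PLX3397 replicate 3 (0.0433). Ccr1 fell in females by 1.57 ± 0.40 (adjusted p = 0.0278).

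Plac8 read 23.9, 0, 15.6 and 12.3 in females on PLX3397 and 0, 4.5, 46.6 and 25.1 in female controls, and the groups overlapped (adjusted p = 0.987). Vcan was listed at 89.7, 0, 0 and 0 on PLX3397 and at 0, 1.39, 0 and 0 on control chow, so it rested on 1 library. Without the filter, Vcan did not pass in males (adjusted p = 0.774) or females (adjusted p = 0.778).

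**Figure D2:**
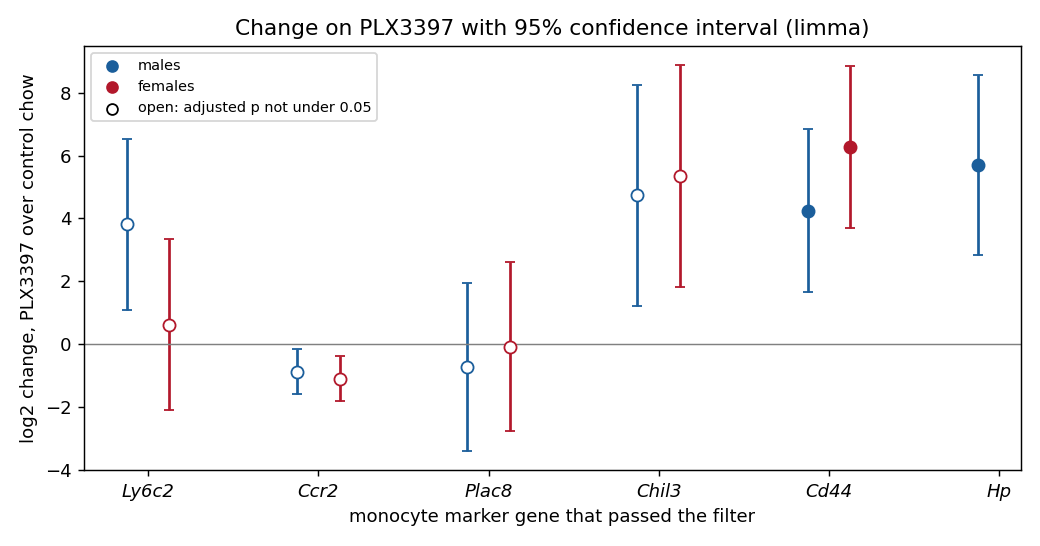
Points are log2 changes on PLX3397 over control chow for the 6 markers that passed the filter, in males and in females (Hp in males alone, as female controls were at 0), with 95% confidence intervals from limma. Filled points were called (Hp and Cd44 in males, Cd44 in females), and Ccr2 is the 1 marker with its whole interval below 0 in both sexes.

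Whether the response differed between females and males was tested directly, as the response of females minus that of males. None of the 6 markers was called, and none had an unadjusted p under 0.05. Across all 19594 genes limma called 0 (0.00%), while 2010 (10.3%) had an unadjusted p under 0.05 and voom weights also called 0. The difference was -3.19 ± 1.81 for Ly6c2 (adjusted p = 0.573; 95% confidence interval -7.03 to 0.65) and 2.03 ± 1.72 for Cd44 (adjusted p = 0.739; 95% confidence interval -1.62 to 5.68). For Ccr2 it was -0.22 ± 0.474 (adjusted p = 0.915), with an interval of -1.22 to 0.79. These intervals do not show equal responses, and that of Ccr2 was the narrowest.

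On PLX3397, females had less Hp and Ly6c2 than males, with 2 of the 6 markers tested lower, none higher and 4 not past the test. Ly6c2 passed the filter only through these males, so whether it was tested depended on being high in them. Over all genes tested, 4.28% were higher and 1.15% lower in females, a split of 838 and 226 genes that turned to 265 and 341 with upper-quartile scaling and 196 and 375 with equal totals, and was 244 and 221 after quantile normalisation. Hp was the 1 marker whose groups did not overlap, lower in females; over all genes, 5.36% did not overlap and were lower and 6.76% were higher.

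Hp was at 0, 1.9, 39.5 and 24.0 in females and at 177 to 966 in males (-5.48 ± 1.35, adjusted p = 0.0296). Its call ended without male PLX3397 replicate 2 (adjusted p = 0.0667) or 3 (0.0896), without female PLX3397 replicate 1 (0.0699) or 2 (0.0715), and without both male PLX3397 replicate 3 and male control replicate 4 (0.0563). It also ended with no filter (0.0527), with quantile normalisation (0.0514) and with the groups compared alone (0.0669).

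Ly6c2 was at 2.08 to 39.3 in females and at 6.75 to 866 in males (-4.71 ± 1.28, adjusted p = 0.0436), with groups that overlapped. Its call held in only 8 of 29 alternatives, with adjusted p-values of 0.00388 to 0.267. Among single libraries it ended without male PLX3397 replicate 2 (0.111), 3 (0.127) or 4 (0.0943), without female PLX3397 replicate 1 (0.0836), 2 (0.0925) or 3 (0.109), without male control replicate 2 (0.057), 3 (0.0508) or 4 (0.05003), and without female control replicate 1 (0.0548), 2 (0.0518) or 4 (0.0541). It was 0.0666 with the replicate number as a block.

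The other markers did not differ past the test between the sexes on the drug. Chil3 was at 65.5 to 411 in females and 407 to 4879 in males (-3.06 ± 1.67, adjusted p = 0.295). Cd44 was at 90.1 to 323 and 194 to 337 in these groups (-0.50 ± 1.22, adjusted p = 0.841), and Ccr2 at 141 to 282 and 83.9 to 256 (0.23 ± 0.335, adjusted p = 0.727).

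On control chow none of the 6 markers was called between females and males, as 0.0663% of all genes tested were. Hp was at 0 in all 4 female controls and at 0 to 95.1 in male controls, Chil3 at 0 to 98.5 in females and 0 to 303 in males, and Cd44 at 0 to 29.9 in females and 0 to 123 in males. The highest values of Cd44, Chil3 and Hp among all controls were in male control replicate 4, the library with Xist at 515.7.

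Ordered by group mean, Ly6c2, Chil3, Hp and Cd44 were highest in males on PLX3397 and lowest in female controls. For Cd44 and Chil3 the second highest mean was that of females on PLX3397, whose values overlapped those of treated males, and neither gene passed the test between them. For Hp and Ly6c2 the second highest was that of male controls, whose values overlapped those of treated males for Ly6c2 but not for Hp. By median this order turned for Hp, at 12.9 in females on PLX3397 and 7.92 in male controls. It also turned for Chil3, at 104.9 in females on PLX3397 and 137.9 in male controls. For Ly6c2 the lowest median was that of females on PLX3397, at 3.21, against 3.94 in female controls. Ccr2 had the opposite ends, with female controls highest at 392 ± 113, then male controls at 283 ± 56.6, females on PLX3397 at 184 ± 65.9 and males on PLX3397 at 165 ± 77.0 (SD, n = 4 each), and each group overlapped the next.

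Transcripts of neutrophils also rose on PLX3397, as did Hp in males and Cd44 in both sexes. Ly6c2, Chil3, Ccr2 and Plac8 did not pass the test in either sex. Of the 14 neutrophil markers 12 were tested, and 9 rose in males and 6 in females, with 0 lower in either sex (medians 4.16 and 3.65). Of those tested, Ly6g, Retnlg, Mmp8 and Mmp9 passed the filter only through males on PLX3397. Whether they were tested thus depended on being high in that group, outside which Retnlg read at most 9.2. Without male PLX3397 replicate 3 the counts were 7 in males and 6 in females. S100a8 read 2020.5, 2305, 14419 and 3184 in males on PLX3397, against 525, 127, 35.8 and 687 in male controls. In females it read 128, 111, 178 and 499 on PLX3397 and was listed at 0 in all 4 controls. Replicate 3 was thus the highest of the treated males for S100a8, as it was for Chil3 and Hp.

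The defining marker Ly6g was at 24.5 to 92.1 in males on PLX3397 against 0 in every male control. In females on PLX3397 it was at 0 to 18.1, against 0 in every female control. The list summed to 50074 to 115740 in males on PLX3397, 36472 to 37620 in male controls, 24315 to 35627 in females on PLX3397 and 29161 to 34170 in female controls. Csf3r, which microglia also express, was at 37714 to 41792 in males on PLX3397, 32915 to 36947 in male controls, 23269 to 34348 in females on PLX3397 and 28909 to 33967 in female controls. It made up most of the sum in every library except male PLX3397 replicate 3, where it was at 40039 of 115740. Between females and males on PLX3397, 9 of the 12 neutrophil markers tested were lower in females and none was higher. The 12 include Ly6g, Retnlg, Mmp8 and Mmp9, which passed the filter only through these males. On control chow 5 of the 12 were lower in females, where 13 of all 19594 genes tested were called. The part of neutrophils in the levels of Hp and Chil3 was not tested.

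Hp and Chil3 were also set against the sum of S100a8 and S100a9, from the neutrophil list, in the same library on the normalised count scale. The part of other cells, monocytes among them, in this pair was not tested. In the 4 males on PLX3397 Hp amounted to 5.42%, 3.33%, 2.94% and 3.13% of that sum, where the sum itself was 4972 to 32810. In the other groups its share was uneven, at 0%, 0.675%, 12.1% and 1.98% in females on PLX3397 and 1.39%, 0%, 0% and 6.27% in male controls. Chil3 in males on PLX3397 amounted to 8.19%, 14.4%, 14.9% and 10.9%. In females on PLX3397 Chil3 was 18.5%, 24.9%, 42.9% and 33.9% of the pair, and in male controls it was 0% to 26.0%.

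Ly6c2 and Cd44 had more uneven shares among treated males. Ly6c2 amounted to 0.136%, 3.40%, 2.54% and 10.8% of the pair in the 4 males on PLX3397. Cd44 was 6.78%, 3.66%, 0.859% and 3.03% there and 47.6%, 114.6%, 69.1% and 7.44% in females on PLX3397. Female controls, with both genes of the pair at 0, give no share, and 1 of them still read 98.5 for Chil3 and another 29.9 for Cd44. Ly6c2 was above 0 in all 4 female controls, at 5.21 or less.

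**Figure D3:**
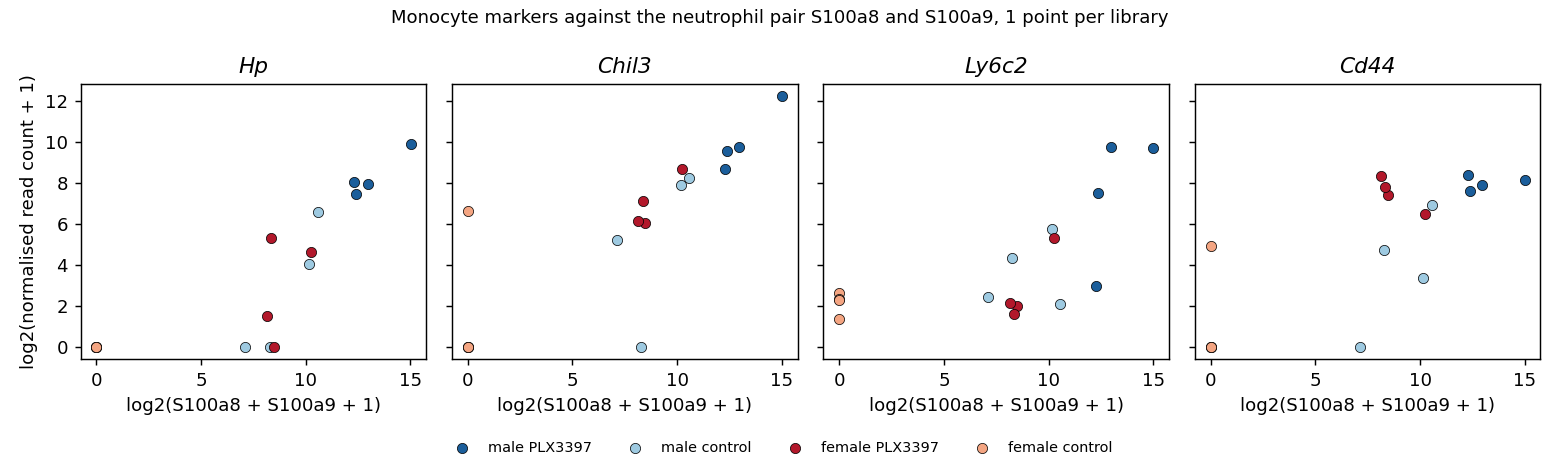
Each panel sets log2(normalised read count + 1) of Hp, Chil3, Ly6c2 or Cd44 against log2 of the sum of S100a8 and S100a9 plus 1, with 1 point per library. Hp and Chil3 are highest in male PLX3397 replicate 3, where the pair is highest too, while Cd44 is similar in males and females on PLX3397, whose sums were 4972 to 32810 and 281 to 1211.

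Among 15 other genes of classical monocytes 11 were tested. In males 2 rose (Ifitm6 and Gda), 1 fell (Ccr1) and 8 did not pass, with a median change of 0.92. Without male PLX3397 replicate 3 or male control replicate 4 Ifitm6 alone rose, and without both libraries none did. In females none rose, 1 fell (Ccr1) and 10 did not pass, with a median of 0.82. The list summed to 1397 to 4061 in males on PLX3397, 1641 to 2477 in male controls, 1655 to 2610 in females on PLX3397 and 1560 to 1867 in female controls, so the groups overlapped in both sexes.

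Ifitm6, a membrane protein gene of myeloid cells, read 22.3, 32.3, 266 and 111 in males on PLX3397, against 23.1, 0, 0 and 0 in male controls (4.97 ± 1.06, adjusted p = 0.00483). Gda, which encodes the enzyme guanine deaminase, read 101, 22.5, 129.9 and 9.7 against 3.32, 0, 2.15 and 1.01 in the same groups (4.23 ± 1.16, adjusted p = 0.0243). Ifitm6 and Gda passed the filter only through males on PLX3397, so whether they were tested depended on being high in that group. Fn1, the fibronectin gene that classical monocytes express, was at 346 to 442 in males on PLX3397 and at 240.1 to 339 in male controls.

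Mpo and Elane, granule genes of neutrophil and monocyte precursors, were uneven among treated males and well above 0 in replicates 2 and 3 on PLX3397. Mpo read 246 and 235 there, and Elane 206 and 373, against 1.09 or less in the other 2 treated males and 0 in all male controls. Replicate 4, which had the highest Ly6c2 at 866, thus had almost no Mpo or Elane.

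Of 9 genes of nonclassical monocytes, the patrolling type with low LY6C, 5 were tested. In males 2 rose and 3 did not pass, and in females none passed. Without male PLX3397 replicate 3 Nr4a1 alone rose in males and Pglyrp1 rose in females, and without male control replicate 4 Pglyrp1, Nr4a1 and Adgre4 rose in males. Without both libraries Adgre4 alone rose in males and none in females. Pglyrp1, a peptidoglycan recognition gene also stored by neutrophils, read 139.7, 82.6, 468 and 67.9 in males on PLX3397 and 41.5, 10.0, 7.56 and 10.1 in male controls (3.26 ± 0.80, adjusted p = 0.0123). Nr4a1, which encodes a nuclear receptor that these monocytes need but that also responds rapidly to stimulation in many cells, rose by 1.80 ± 0.43 (adjusted p = 0.0107). Ace was above 0 in 1 of the 16 libraries and Treml4 in 6.

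Other cell types that a sort could hold moved differently. Of 12 border-associated macrophage markers 8 fell in males and 6 in females, with 0 higher (medians -3.10 and -3.02), and 5 fell in males without male control replicate 4. Among them F13a1, a coagulation factor gene that classical monocytes also carry, was at 5.55 to 98.9 in males on PLX3397 and 348 to 869.9 in male controls, and at 14.0 to 136 in females on PLX3397 and 242 to 1038 in female controls. That list summed to 19485 to 23866 in males on PLX3397, 26191 to 29504 in male controls, 19561 to 23104 in females on PLX3397 and 27584 to 34013 in female controls. The part of these macrophages in the level of Ccr2 was not tested.

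Of 12 lymphocyte markers 4 were tested and Ccl5 alone rose, in males (5.02 ± 0.73, adjusted p = 0.000226), while Cd3e was at 0 in all 16 libraries. Among 8 dendritic cell markers Itgae and Cd209a fell in both sexes and Flt3 rose in males (adjusted p = 0.0443), a call that ended without male PLX3397 replicate 3 or male control replicate 4. Of 8 endothelial markers 5 were tested, and Pecam1 alone, which microglia also express, fell in both sexes, and Cldn5 was above 0 in 1 library. Oligodendrocyte precursor markers, which bear on Vcan, had 1 of 7 members tested and none called. That member, Olig1, read 0, 10.9, 23.6 and 134 in males on PLX3397 and 0 in every male control (adjusted p = 0.144), and 80.9, 0, 36.5 and 25.3 in females on PLX3397 and 41.1, 0, 0 and 0 in female controls (adjusted p = 0.42). Pdgfra read 40.3 or less in every library.

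Microglial identity genes were lower on PLX3397, 11 of 11 in males and 9 of 11 in females, with medians of -1.02 and -0.64. Haemoglobin genes were called higher on PLX3397 in neither sex. Among males on PLX3397 the erythroid and platelet genes summed to 55.4, 22.5, 748 and 87.8, against 18.4 to 1697 in male controls. Replicate 3 was thus the highest treated male for this sum, as it was for Chil3 and Hp. Hbb-bs read 0 to 146 in males on PLX3397 and 0 to 679 in male controls, and 0 in all 4 females on PLX3397 and 12.0 to 387 in female controls. In females Hbb-bs fell (adjusted p = 0.0403), as 1 of 6 erythroid and platelet genes tested, and none of the 6 passed in males. Without male PLX3397 replicate 3, Hba-a1 and Hba-a2 fell in both sexes as well.

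**Figure D4:**
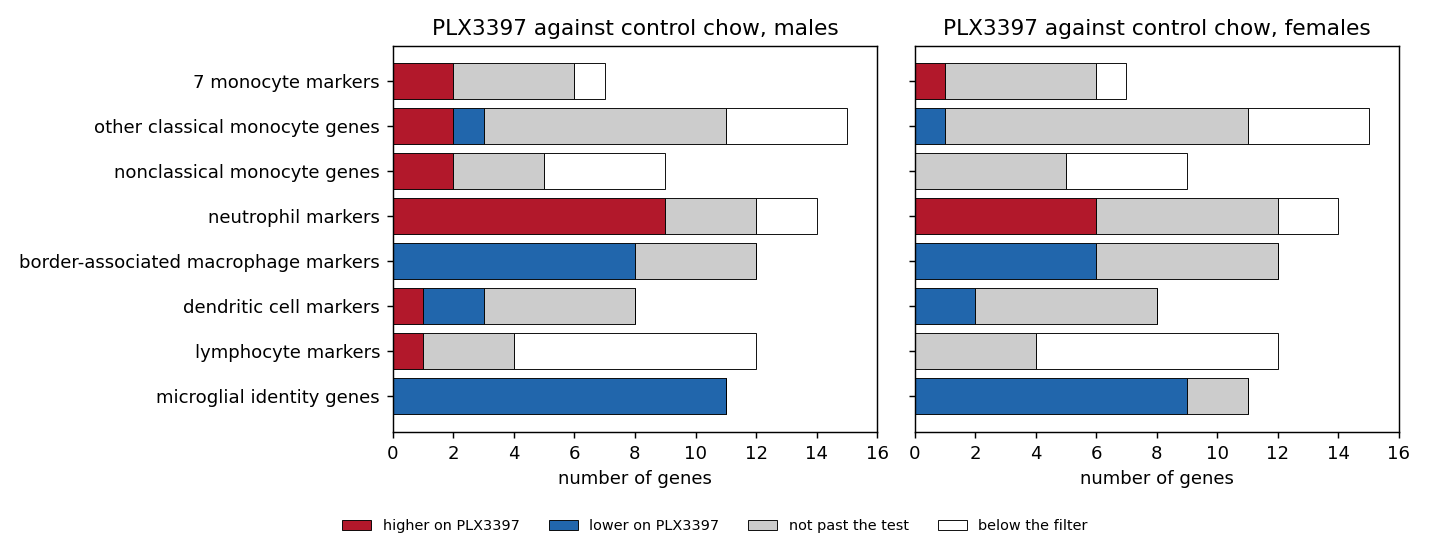
Bars count the genes of each marker list that were higher, lower, not past the test or below the filter on PLX3397 against control chow, for males and for females. Neutrophil markers include 9 higher genes in males and 6 in females, while the 7 monocyte markers include 2 and 1.

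Ligands and binding partners of the 7 markers were measured in the same libraries. Of 10 such genes 7 were tested, with 2 higher and 1 lower in males and 1 higher and 1 lower in females. In males the call of Ccl2 ended without male PLX3397 replicate 3 and that of Cd163 without male control replicate 4. Ccl2, the main ligand of CCR2, rose in both sexes, by 1.56 ± 0.47 in males (adjusted p = 0.0402) and 1.92 ± 0.47 in females (adjusted p = 0.0217). It read 417, 144, 219 and 381 in males on PLX3397 and 72.9, 93.0, 73.3 and 129 in male controls. In females it read 415, 310.1, 285 and 94.5 on PLX3397 and 89.8, 100.3, 57.1 and 30.8 on control chow.

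Spp1, whose product osteopontin binds CD44, rose in males by 3.31 ± 0.61 (adjusted p = 0.0016), with treated libraries at 418 to 1674 and control libraries at 26.9 to 188. The female change of 1.87 ± 0.61 missed the threshold (adjusted p = 0.0946). Cd163, the haptoglobin-haemoglobin receptor of macrophages, fell in males by 2.78 ± 0.85 (adjusted p = 0.0433) while in females it fell by 3.71 ± 0.85 (adjusted p = 0.0145). The other CCR2 ligands Ccl7, Ccl8 and Ccl12 were not called in either sex.

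For each tested marker, the genes of most similar profile were found by Euclidean distance between log2(value + 1) profiles scaled to mean 0 and SD 1 over the 16 libraries, where 0 is an identical profile and the median gene lay at 5.37 to 5.49. Nearest to Hp were Wfdc21 (1.46), Serpinb1a (1.63) and Rgcc (1.72), and nearest to Cd44 were Abcb1b (1.51), AU020206 (1.65) and Hpse (1.66). Chil3 was nearest to Gm37121 (2.00), to the neutrophil granule gene Ngp (2.21) and to C230085N15Rik (2.22). Ly6c2 was nearest to Gm44530 (1.82), Brsk1 (1.84) and Rab15 (1.86). As for every other marker tested, no gene of the monocyte lists was among these nearest genes. Ccr2 was nearest to Maml3 (2.08), Pdlim5 (2.09) and Fam117a (2.15), and Plac8, at 2.35 or more from any gene, to Slc12a3, Gm9013 and Card10. All these profiles share the 16 libraries and their groups, so likeness reflects the contrast of chows as well as single libraries.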

How the data were processed

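Total RNA of sorted microglia (500 pg) was amplified with a low-input kit and 150 pg of cDNA was used per library, per the labels' protocols. The authors deposited 1 table of normalised read counts, a signal per gene and library; the formula is not given in the sources used here. Per the submitters' processing notes, the build was GRCm39 and the tools included featureCounts 2.0.1, STAR 2.7.9a, Salmon 1.5.2 and bcl2fastq 2.19.1, whose roles are not stated. Low values lay near multiples of a step per library, but only 61.2% to 83.7% of the values below 5.5 steps were within 0.1 of a whole read, so count models and counting intervals were not used. A 0 is given as listed; 20817 genes had no value above 0.

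Symbols came from a table of Ensembl identifiers, for 51029 of 53850. The test was limma 3.58.1 (R 4.3.3) on log2(value + 1), for genes reaching 10 in 4 or more libraries (intensity trend, 1 mean per group, all 16 libraries, two-sided). The 5 comparisons were the drug over its control in each sex, the difference of these responses, and females minus males on each chow. Alternatives were other pseudocounts, filters, scalings and weights, a replicate block, exact permutation and each library left out; list counts without 2 libraries that stood apart were added after seeing the data. The procedure was tested on simulated data. No 2 libraries of a group had the same non-zero value for any gene. The members, lists, tests and motifs were chosen with earlier results of these data known. Named genes were the members, fixed defining markers, up to 4 genes per list with the smallest p, and the 3 nearest profiles. Mpo, Elane, Fn1, F13a1, Retnlg, Mmp8, Mmp9 and the genes at or near 0 were added after their values were seen. Some results on items withheld for evaluation are not reported here. Figures were drawn with matplotlib 3.10.9.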

Additional observations from a re-analysis of the deposited data

Results flagged for a closer look

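In 13 of the 43 groups of 4 libraries examined, 1 library lay far from the other 3; chance alone gives about 1 in 20 where values vary freely, which does not hold where the other 3 libraries are at 0, since any value then stands apart. Male PLX3397 replicate 3 was the highest of its group for Chil3 (4879), Hp (966) and the summed neutrophil markers (115740). Male control replicate 4 stood out for Hp (95.1) and Xist (515.7). Single high libraries were also found for Ly6c2 in female PLX3397 replicate 4 (39.3), Ccr2 in female PLX3397 replicate 1 (282), Chil3 in female control replicate 3 (98.5) and Cd44 in female control replicate 2 (29.9). Chil3 and Cd44 were at 0 in the other 3 female controls. Vcan had 1 library above the rest in each group, in 3 groups with the others at 0 and at values down to about 1 read: male PLX3397 replicate 2 (25.8), male control replicate 3 (5.02), female PLX3397 replicate 1 (89.7) and female control replicate 2 (1.39).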

How the results depend on the processing

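Each alternative changed 1 choice, and 1 of them left out a pair of libraries together. Of the changes of single markers, 782 kept their direction and side of the threshold, 37 lost a call, 16 gained one and 18 changed sign without a call; no called change turned its sign. In males the 2 markers called became 4 with a pseudocount of 5, 1 with no filter and 5 with array weights; in females the 1 called became 0 with voom weights. Between females and males on PLX3397 the 2 called became 0 with no filter, with quantile normalisation, with the groups compared alone and without both male PLX3397 replicate 3 and male control replicate 4, and 1 with upper-quartile scaling, equal totals, voom weights or the replicate block. The cause was not tested. Leaving out 1 library gave 1 to 3 markers in males, 1 to 3 in females, and 0 to 2 between the sexes on PLX3397. It gave 0 to 0 for the difference of responses and on control chow.

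Over all genes, the 2289 called in males became 1518 without that pair of libraries and 1724 to 2312 without 1 library; the 1047 in females became 772 to 1143. The 0 for the difference of responses became 1 with a pseudocount of 5, 2 without the pair and 0 to 6 without 1 library. The 1064 between females and males on PLX3397 became 669 with no filter, 606 with upper-quartile scaling, 465 with quantile normalisation, 571 with equal totals, 44 with the groups compared alone, 472 with voom weights, 345 without the pair and 332 to 1242 without 1 library. The 13 on control chow became 7 with voom weights and 11 to 20 without 1 library. Scaling moved the split of calls: in males 815 genes rose and 1474 fell, against 1348 and 917 with equal totals, 1040 and 1189 after quantile normalisation, and 1032 and 1224 under upper-quartile scaling. On PLX3397, 838 genes were higher and 226 lower in females, against 196 and 375, 244 and 221, and 265 and 341 in the same order of scalings. Equal totals moved the median of all genes in males to 0.18.

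With the replicate number as a block, 2136 genes were called in males, 962 in females, 0 for the difference of responses, 863 between females and males on PLX3397 and 12 on control chow. The numbers did not pair the samples: 1 of 24 same-numbered pairs had a correlation of deviations over 0.1 (range -0.0446 to 0.115), and 2 of 16 libraries correlated best with their own number. At these depths a value of a few normalised counts rests on a few reads, so low levels of Ly6c2, Plac8 and Vcan cannot show small differences.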
